A study of Mus musculus with 24 samples.

Results

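This account covers 9 genes for secreted proteins that bind bone morphogenetic proteins (BMPs) or activins outside the cell: Fst, Fstl1, Grem1, Chrd, Chrdl1, Chrdl2, Nog, Bmper and Sostdc1. They were listed by name and function, with earlier results of these data known, and are 9 of the 56748 genes in the count table. The paper reported Fst, Grem1, Chrdl2, Chrd and Nog as upregulated in the cultured buccal part. Counts of members called, beside the shares of all genes, are therefore a description and not a test of the list. All 9 passed the filter on low counts in every comparison. Bulk RNA sequencing was performed on dental mesenchyme of the first mandibular molar tooth germ of ICR mouse embryos, taken at the cap stage (E13) or the bell stage (E15), in 24 libraries that form 8 groups of 3. The undivided mesenchyme gave Cap-W and Bell-W, the lingual (tongue side) and buccal (cheek side) parts, separated with a fine needle, gave Cap-L, Cap-B, Bell-L and Bell-B, and the cap stage parts kept in vitro for 2 days gave Cap-L+2D and Cap-B+2D. No transgene or added agent is named for any of these groups, and in all of them the mesenchyme was freed with dispase II. The methods give embryos of 3 pregnant mice, sequencing in triplicate and, elsewhere, 2 biological replicates, and no statement was found that the 3 libraries of a group came from separate animals or cultures, so p-values measure the spread between these libraries, which may be technical.

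BMPs and activins are dimeric ligands of the TGF-beta superfamily that signal through paired type I and type II receptor kinases and Smad proteins. In the developing tooth, Bmp4 and activin beta A, the product of Inhba, are made by the mesenchyme and act on the neighbouring epithelium as well as on the mesenchyme itself, where Msx1 is a well known partner of Bmp4. Secreted antagonists set how much free ligand reaches the receptors, each with its own ligand preference. Follistatin (Fst) holds activins with high affinity, Noggin (Nog), Chordin (Chrd) and Gremlin 1 (Grem1) hold BMPs, and Sostdc1, also called ectodin or Wise, touches both BMP and Wnt signalling and is known in mice for limiting tooth number and cusp pattern.

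The libraries held from 20581720 to 39266497 counted read pairs each, and levels are given as TMM-normalized CPM (counts scaled to 1000000 per library), in which 3 counts correspond to between 0.0764 and 0.146 CPM, a limit that covers counting error only. All 8 dental mesenchyme markers, such as Pax9, Barx1 and Lhx6, had counts in every group, with a summed level between 1941 and 3696 CPM in the 24 libraries. The markers of other cell types were also present. The 8 epithelium markers, among them Krt5, Krt14 and Epcam, summed to between 89.1 and 90.8 CPM in Cap-B+2D and to between 311 and 1824 CPM in the libraries of the other groups, the highest value being in 1 Bell-W library, replicate 3. The 8 skeletal muscle markers, among them Myod1 and Actc1, summed to between 16.4 and 18.2 CPM in Cap-L, between 209 and 219 CPM in Cap-B, between 244 and 261 CPM in Cap-L+2D and between 3126 and 3207 CPM in Cap-B+2D. In Bell-L they came to between 106 and 116 CPM, in Bell-B to between 802 and 812 CPM and in the 6 undivided libraries to between 8.26 and 17.7 CPM. Rn18s-rs5, a ribosomal RNA gene, made up 5.39% of all counts in Cap-W replicate 1, 1.30% in Bell-W replicate 1 and 1.43% in Bell-W replicate 2. Every other library held at most 0.304%. The biological coefficient of variation was 0.25 between the undivided libraries and between 0.0288 and 0.0447 in the fits of the parts. In bulk RNA, fewer cells of a type and less RNA per cell cannot be told apart.

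For 4 of the 9 genes, Fstl1, Grem1, Chrd and Bmper, the RefSeq promoter table (GRCm38.p6) held an entry, and Fst, Chrdl1, Chrdl2, Nog and Sostdc1 had none. The 250 bases before the transcription start are shown, in the direction of the gene, for all 4. In culture, Grem1 and Chrd were called higher on both sides. Fstl1 was called higher on the lingual side alone (log2 fold change 0.83), and Bmper lower on the buccal side alone (-1.95). On the other side, Fstl1 (0.22) and Bmper (-0.49) moved the same way, with Bmper just under the limit of 0.5 for a call. Capitals mark GGGCGG, the GC box, in either orientation. The windows are chr16:37776805-37777054 on the plus strand for Fstl1, chr2:113758649-113758898 on the minus strand for Grem1, chr16:20732877-20733126 on the plus strand for Chrd and chr9:23222826-23223075 on the plus strand for Bmper.
Fstl1: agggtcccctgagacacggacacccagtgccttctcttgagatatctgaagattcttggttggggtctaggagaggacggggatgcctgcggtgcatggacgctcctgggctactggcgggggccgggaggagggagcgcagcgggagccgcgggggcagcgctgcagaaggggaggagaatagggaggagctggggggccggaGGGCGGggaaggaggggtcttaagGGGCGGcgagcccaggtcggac
Grem1: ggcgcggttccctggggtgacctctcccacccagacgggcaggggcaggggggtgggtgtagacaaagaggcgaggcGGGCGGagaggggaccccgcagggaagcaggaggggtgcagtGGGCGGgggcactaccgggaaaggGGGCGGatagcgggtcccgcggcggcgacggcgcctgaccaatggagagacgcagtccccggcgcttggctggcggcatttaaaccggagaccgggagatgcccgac
Chrd: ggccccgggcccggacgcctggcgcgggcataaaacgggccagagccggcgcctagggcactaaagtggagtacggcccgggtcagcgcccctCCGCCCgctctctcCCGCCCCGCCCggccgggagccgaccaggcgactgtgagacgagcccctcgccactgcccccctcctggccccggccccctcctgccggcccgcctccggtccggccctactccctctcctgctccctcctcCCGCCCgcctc
Bmper: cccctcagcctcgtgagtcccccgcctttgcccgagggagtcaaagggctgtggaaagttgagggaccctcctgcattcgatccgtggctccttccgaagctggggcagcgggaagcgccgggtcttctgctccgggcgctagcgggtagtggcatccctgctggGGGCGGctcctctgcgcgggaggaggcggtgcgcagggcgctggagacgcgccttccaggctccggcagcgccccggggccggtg
The GC box occurred 4 times upstream of Chrd, where 2 of the matches overlap by 1 base, 3 times upstream of Grem1, 2 times upstream of Fstl1 and 1 time upstream of Bmper, and 32.7% of the 32851 promoters in the table held it within the same length. The palindrome GGCGCC, a GC-rich element that has been described in BMP-responsive genes, occurred 1 time upstream of Grem1 and 1 time upstream of Chrd, and 9.59% of all promoters held it. Neither TATAAA (12.4% of all promoters), TGANTCA (6.75%) nor TGACGTCA (1.55%) was found in any of these 4 windows, with both strands searched. GC content was 68% for Fstl1, 72% for Grem1, 78% for Chrd and 71.6% for Bmper, against a median of 52.4% over all promoters. The shares over all promoters were not matched for GC content. These are matches of letters and show no binding, and their relation to the levels of the genes was not tested.

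Per kilobase of exon, Fstl1 had the highest mean level of the 9 genes in each of the 8 groups, from 111 CPM per kb in Cap-W to 272 CPM per kb in Cap-B+2D. Fstl1 encodes a secreted follistatin-like glycoprotein that mesenchymal cells make widely. Sostdc1 came next in every group, from 19.9 CPM per kb in Cap-B+2D to 147 CPM per kb in Bell-W. The other 7 genes were lower, and the highest among them was Fst in Cap-L at 14.2 CPM per kb and in Cap-L+2D at 38.6 CPM per kb, Chrd in Cap-B+2D at 11.2 CPM per kb and Bmper in Cap-B at 7.77 CPM per kb. Chrdl2 had the lowest level in Cap-L, Cap-B, Cap-L+2D, Bell-L, Bell-B and Bell-W, at between 0.335 and 1.40 CPM per kb, while Nog was lowest in Cap-W at 1.05 CPM per kb and Chrdl1 was lowest in Cap-B+2D at 1.22 CPM per kb, both within 1 SD of Chrdl2.

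**Figure D1:**
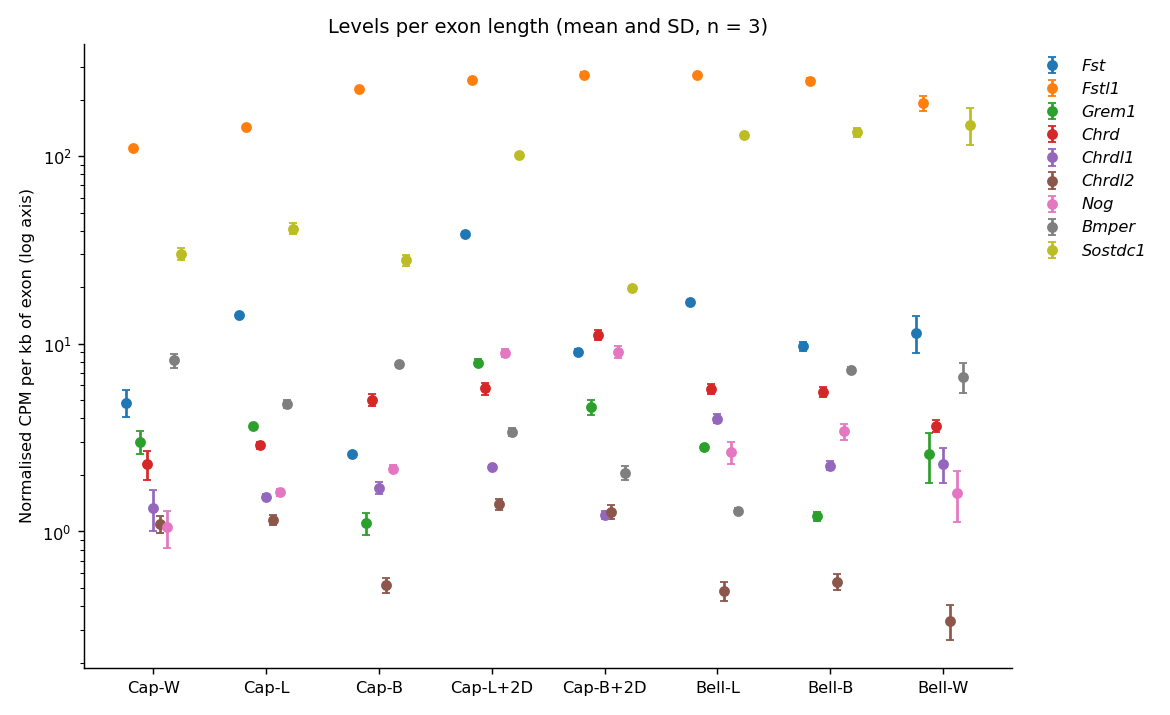
Mean level per exon length of the 9 antagonist genes in the 8 groups, in normalised CPM per kb on a log axis; points are means and bars are the SD of 3 libraries. Fstl1 is the top point in every group, from 111 to 272 CPM per kb, and Sostdc1 the next, with its lowest value in Cap-B+2D.

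Fst (ENSMUSG00000021765, chromosome 13, 114588826 to 114595487, minus strand, GRCm39) was a lingual gene at both stages and after culture. Its levels were 65.0, 65.7 and 64.2 CPM in Cap-L and 11.9, 11.6 and 11.9 CPM in Cap-B. In Bell-L they were 76.9, 75.1 and 78.1 CPM, against 44.1, 47.2 and 42.1 CPM in Bell-B. Every lingual library lay above every buccal library of its stage. The cultured parts held 178, 179 and 174 CPM on the lingual side and 43.3, 40.9 and 40.7 CPM on the buccal side, and the undivided mesenchyme held 18.7, 22.2 and 26 CPM at the cap stage and 39.7, 55.5 and 62.5 CPM at the bell stage. Cap-L+2D was thus the highest of the 8 groups and Cap-B the lowest, and in the order of the means only Cap-B+2D, Bell-B and Bell-W overlapped with a neighbour. The buccal part was lower by a factor of 5.41 at the cap stage (log2 fold change -2.43, SE 0.055, adjusted p = 1.50e-16), by 1.73 at the bell stage (-0.79, SE 0.041, adjusted p = 6.56e-20) and by 4.27 after culture (-2.09, SE 0.041, adjusted p = 1.98e-23). Of its exon bases, 2.51% are shared with Gm47040, and read pairs there were not counted.

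From the cap to the bell stage, Fst rose 3.75-fold in the buccal part (log2 fold change 1.91, SE 0.059, adjusted p = 2.30e-23) and 2.34-fold in the undivided mesenchyme (1.23, SE 0.19, adjusted p = 4.80e-03), while in the lingual part its log2 fold change was 0.25 (SE 0.043, adjusted p = 2.21e-05), under the limit of 0.5 for a call. In culture it rose on both sides, 2.71-fold in the lingual part and 3.44-fold in the buccal part. Cap-B+2D then stood at the level of Bell-B (log2 fold change -0.12, SE 0.046, adjusted p = 0.0185, not called, libraries overlapping), and Cap-L+2D was 2.27-fold above Bell-L.

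Activin beta A, the ligand that follistatin holds most tightly, was also lingual. Inhba means were 194 CPM in Cap-L and 95.9 CPM in Cap-B, 185 CPM in Bell-L and 126 CPM in Bell-B, and 110 CPM in Cap-L+2D and 33.6 CPM in Cap-B+2D. It fell in culture where Fst rose, with log2 fold changes of -0.83 (SE 0.051) in the lingual part and -1.55 (SE 0.040) in the buccal part. Per kilobase of exon, Inhba was at 30.3 CPM per kb in Cap-L, above Fst at 14.2, and at 17.1 CPM per kb in Cap-L+2D, below Fst at 38.6. On the buccal side the levels per kb were 15.0 for Inhba and 2.57 for Fst in Cap-B, and 5.26 for Inhba and 9.07 for Fst in Cap-B+2D. In the fresh bell stage parts, Inhba was above Fst, with 28.9 against 16.7 CPM per kb in Bell-L and 19.6 against 9.69 CPM per kb in Bell-B. The order of the 2 genes was thus opposite in the cultured parts and in the 6 fresh groups, a description that was not tested.

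Fstl1 (ENSMUSG00000022816, chromosome 16, 37597235 to 37656876, plus strand) was called between the sides at the cap stage, with the buccal part higher, and not at the bell stage or after culture. Levels were 712, 685 and 699 CPM in Cap-L and 1123, 1110 and 1132 CPM in Cap-B, a difference of 1.63-fold (log2 fold change 0.71, SE 0.043, adjusted p = 1.66e-10). By the bell stage both sides were near each other, at 1309, 1334 and 1323 CPM in Bell-L and 1189, 1277 and 1238 CPM in Bell-B (log2 fold change -0.10, SE 0.032, adjusted p = 0.0122). The lingual part rose 1.91-fold between the stages and 1.78-fold in culture, to 1229, 1257 and 1258 CPM in Cap-L+2D. In Cap-B+2D the levels were 1376, 1329 and 1302 CPM, and the log2 fold change from Cap-B was 0.22 (SE 0.031). The undivided mesenchyme held 536, 548 and 545 CPM at the cap stage, below both parts, and 881, 1045 and 896 CPM at the bell stage, again below both.

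Grem1 (ENSMUSG00000074934, chromosome 2, 113576509 to 113588991, minus strand), of the DAN family of BMP antagonists, was lingual in each of the 3 settings. Cap-L held 15.5, 14.8 and 15.1 CPM and Cap-B 4.01, 5.23 and 4.49 CPM, and Bell-L held 11.9, 11.7 and 11.6 CPM and Bell-B 4.81, 4.84 and 5.31 CPM. After culture the levels were 34.2, 33.2 and 31.5 CPM in Cap-L+2D and 20.3, 19.6 and 17.2 CPM in Cap-B+2D. No buccal library reached a lingual library of the same setting, and the cultured groups were the 2 highest of the 8. The buccal level was lower by 3.23-fold at the cap stage (log2 fold change -1.69, SE 0.096), by 2.36-fold at the bell stage (-1.24, SE 0.087) and by 1.73-fold after culture (-0.79, SE 0.061), each with an adjusted p of at most 6.06e-11. Grem1 rose in culture by 2.17-fold in the lingual part and by 4.05-fold in the buccal part, to 2.75-fold and 3.74-fold above the bell stage parts. Between the fresh stages the log2 fold changes were -0.35 (SE 0.068) in the lingual part and 0.12 (SE 0.12) in the buccal part, neither called. In the undivided mesenchyme Grem1 stood at 14.3, 12.1 and 11.0 CPM at the cap stage and at 13.1, 12.0 and 7.11 CPM at the bell stage, where the groups overlapped.

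Chrd (ENSMUSG00000006958, chromosome 16, 20551877 to 20561134, plus strand), the founding member of the chordin family, was buccal at the cap stage and after culture. Its levels were 18.7, 18.1 and 17.2 CPM in Cap-L and 32.4, 28.8 and 33.0 CPM in Cap-B, and 37.5, 33.2 and 37.9 CPM in Cap-L+2D and 69.6, 66.0 and 74.5 CPM in Cap-B+2D. The bell stage parts held 38.6, 34.2 and 35.2 CPM on the lingual side and 35.1, 32.4 and 36.5 CPM on the buccal side, which overlapped. The buccal excess was 1.77-fold at the cap stage (log2 fold change 0.83, SE 0.064, adjusted p = 5.43e-09) and 1.92-fold after culture (0.94, SE 0.054, adjusted p = 8.20e-14), while at the bell stage the log2 fold change was -0.05 (SE 0.051, adjusted p = 0.462). The level rose in culture 2.00-fold and 2.18-fold on the 2 sides, with a log2 fold change of 1.00 (SE 0.064) in the lingual part and 1.12 (SE 0.053) in the buccal part. Cap-L+2D and Bell-L overlapped (log2 fold change -0.01, SE 0.060, adjusted p = 0.856), and Cap-B+2D was 1.98-fold above Bell-B. The undivided mesenchyme held 11.5, 15.2 and 16.4 CPM at the cap stage and 21.2, 22.8 and 24.7 CPM at the bell stage. Of the exon bases of Chrd, 3.82% are shared with Thpo and were not counted.

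The chordin-like genes followed other courses. Chrdl1 (ENSMUSG00000031283, chromosome X, 142068670 to 142177258, minus strand) was between 10.0 and 10.7 CPM in Cap-L and between 11.0 and 12.5 CPM in Cap-B, and rose in the lingual part to between 25.5 and 28.5 CPM at the bell stage, 2.64-fold above Cap-L. Bell-B was lower, at between 14.6 and 16.2 CPM (buccal over lingual log2 fold change -0.84, SE 0.061, adjusted p = 4.00e-15), and Bell-L was the highest of the 8 groups. In culture Chrdl1 moved in opposite directions on the 2 sides, to between 14.8 and 15.3 CPM in Cap-L+2D (log2 fold change 0.52, SE 0.072) and to between 7.95 and 8.76 CPM in Cap-B+2D (-0.51, SE 0.081). Both of these values lie close to the limit of 0.5, and leaving out Cap-L replicate 2 (0.49), Cap-L+2D replicate 2 (0.50), Cap-B replicate 1 (-0.46) or Cap-B+2D replicate 3 (-0.49) ended the call on that side. The buccal call was also lost with RLE, DESeq2 or all 24 libraries (-0.50 each) and without the count filter (-0.48), and the lingual call with library totals (0.37). Chrdl2 (ENSMUSG00000030732, chromosome 7, 99655379 to 99683935, plus strand) had few counts, from 26 to 184 per library, and was between 3.90 and 4.39 CPM in Cap-L and between 1.80 and 2.09 CPM in Cap-B. It fell to between 1.60 and 1.99 CPM in Bell-L (log2 fold change -1.23, SE 0.14, adjusted p = 5.20e-08) and was between 1.82 and 2.19 CPM in Bell-B. In the cultured parts it was between 4.76 and 5.41 CPM on the lingual side and between 4.42 and 5.11 CPM on the buccal side, where the rise from Cap-B was 2.38-fold (log2 fold change 1.25, SE 0.14, adjusted p = 1.63e-09). The undivided mesenchyme held between 3.57 and 4.43 CPM of Chrdl2 in Cap-W and between 1.07 and 1.52 CPM in Bell-W.

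Nog (ENSMUSG00000048616, chromosome 11, 89191464 to 89193158, minus strand), whose product Noggin blocks the receptor-binding surfaces of BMPs, was the gene with the largest rise in the cultured lingual part among the 9. Its levels in the fresh cap stage parts were 2.81, 2.61 and 2.82 CPM in Cap-L and 3.56, 3.85 and 3.59 CPM in Cap-B, from 78 to 93 counts per library. After culture they were 14.9, 15.9 and 14.5 CPM in Cap-L+2D and 15.2, 14.3 and 16.6 CPM in Cap-B+2D, and the 2 sides overlapped. The bell stage parts held 3.85, 4.48 and 5.07 CPM in Bell-L and 5.67, 5.30 and 6.41 CPM in Bell-B. Nog rose in culture 5.47-fold in the lingual part (log2 fold change 2.45, SE 0.10, adjusted p = 1.04e-16) and 4.09-fold in the buccal part (2.03, SE 0.096, adjusted p = 8.67e-19), to 3.30-fold and 2.60-fold above the bell stage parts. Between the fresh stages the rise was 1.66-fold in the lingual part and 1.58-fold in the buccal part. The undivided mesenchyme held 1.96, 2.05 and 1.33 CPM at the cap stage and 1.78, 3.22 and 3.19 CPM at the bell stage, with overlapping libraries.

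Bmper (ENSMUSG00000031963, chromosome 9, 23134372 to 23396496, plus strand), the vertebrate crossveinless-2, binds BMPs and Chordin and can hold back or help BMP signalling. At the cap stage its levels were 21.7, 23.6 and 23.7 CPM in Cap-L and 38.4, 37.8 and 36.5 CPM in Cap-B. At the bell stage they were 6.52, 6.11 and 6.07 CPM in Bell-L and 36.0, 35.6 and 33.9 CPM in Bell-B, so that the buccal excess went from 1.66-fold (log2 fold change 0.73, SE 0.057, adjusted p = 6.58e-09) to 5.64-fold (2.49, SE 0.066, adjusted p = 4.34e-30). The buccal level stayed within a log2 fold change of -0.10 (SE 0.051, adjusted p = 0.107) between the stages, and the lingual level fell by 1.87 on the log2 scale (SE 0.076, adjusted p = 2.01e-16). In culture the sides were the other way round, at 15.9, 17.4 and 16.0 CPM in Cap-L+2D and 10.0, 10.8 and 9.10 CPM in Cap-B+2D, and the buccal part was the lower one by 1.66-fold (log2 fold change -0.74, SE 0.076, adjusted p = 7.63e-09). The cultured buccal part was 3.87-fold below Cap-B and 3.61-fold below Bell-B, and the cultured lingual part was 2.60-fold above Bell-L. The undivided mesenchyme held 42.6, 36.0 and 39.7 CPM at the cap stage and 34.9, 25.6 and 36.3 CPM at the bell stage. The skeletal muscle markers were higher in the buccal part in all 3 settings, and in Cap-B+2D their sum was the highest of the 8 groups, while the Bmper mean was the lowest but for Bell-L. Their part in the result was not tested.

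Sostdc1 (ENSMUSG00000036169, chromosome 12, 36364138 to 36368451, plus strand) rose with stage on both sides and parted between the sides in culture. Its levels were 74.1, 77.5 and 67.9 CPM in Cap-L and 48.0, 47.6 and 53.6 CPM in Cap-B, and 227, 234 and 233 CPM in Bell-L and 225, 250 and 244 CPM in Bell-B. In the cultured parts they were 186, 178 and 179 CPM on the lingual side and 36.5, 34.6 and 35.2 CPM on the buccal side. The bell stage levels of the 2 sides overlapped, and those of the cultured sides did not. From the cap to the bell stage Sostdc1 rose 3.19-fold in the lingual part (log2 fold change 1.68, SE 0.047) and 4.80-fold in the buccal part (2.26, SE 0.043). In the undivided mesenchyme, where the levels were 49.3, 56.7 and 55.7 CPM in Cap-W and 207, 255 and 324 CPM in Bell-W, the rise was 4.83-fold. Sostdc1 rose in culture 2.46-fold in the lingual part (log2 fold change 1.30, SE 0.047, adjusted p = 5.31e-18) and fell 1.44-fold in the buccal part (-0.53, SE 0.049, adjusted p = 3.38e-11). Cap-B+2D was then 6.90-fold below Bell-B and 5.13-fold below Cap-L+2D. The fall in the cultured buccal part was -0.48 and not called without Cap-B replicate 3 and -0.49 and not called without the count filter, and the difference between the fresh cap stage parts (log2 fold change -0.53, SE 0.055) was -0.50 and not called without Cap-L replicate 2.

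Of the 8 epithelium markers, 7 were called lower and 1 higher in Cap-B+2D than in Cap-B, against 16.6% and 17.9% of all genes. Their sum was between 311 and 325 CPM in Cap-B and between 89.1 and 90.8 CPM in Cap-B+2D, and Sostdc1 fell 1.44-fold. Mean Krt5 was 152 CPM in Cap-B and 8.45 CPM in Cap-B+2D, against 160 CPM in Cap-L and 161 CPM in Cap-L+2D, and Krt14 was 80.1 CPM in Cap-B and 6.55 CPM in Cap-B+2D. All 8 epithelium markers kept counts in Cap-B+2D. In Cap-L+2D their sum, between 314 and 346 CPM, was below the 440 to 487 CPM of Cap-L, while Sostdc1 was higher. Of the 8 markers, 5 were called lower and 0 higher in Cap-L+2D than in Cap-L, against 15.9% and 19.6% of all genes. At the bell stage the epithelium sum was between 712 and 747 CPM in Bell-L and between 527 and 546 CPM in Bell-B. On each side this was above the fresh cap stage part, as Sostdc1 was. Bell-W replicate 3, with an epithelium sum of 1824 CPM against 523 and 460 CPM in the other Bell-W libraries, also had the highest Sostdc1 level, 324 CPM. Without that library, the log2 fold change of Sostdc1 in the undivided mesenchyme was 2.09 (adjusted p = 7.07e-04), and it was still called. The part of epithelium in these results was not tested.

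**Figure D2:**
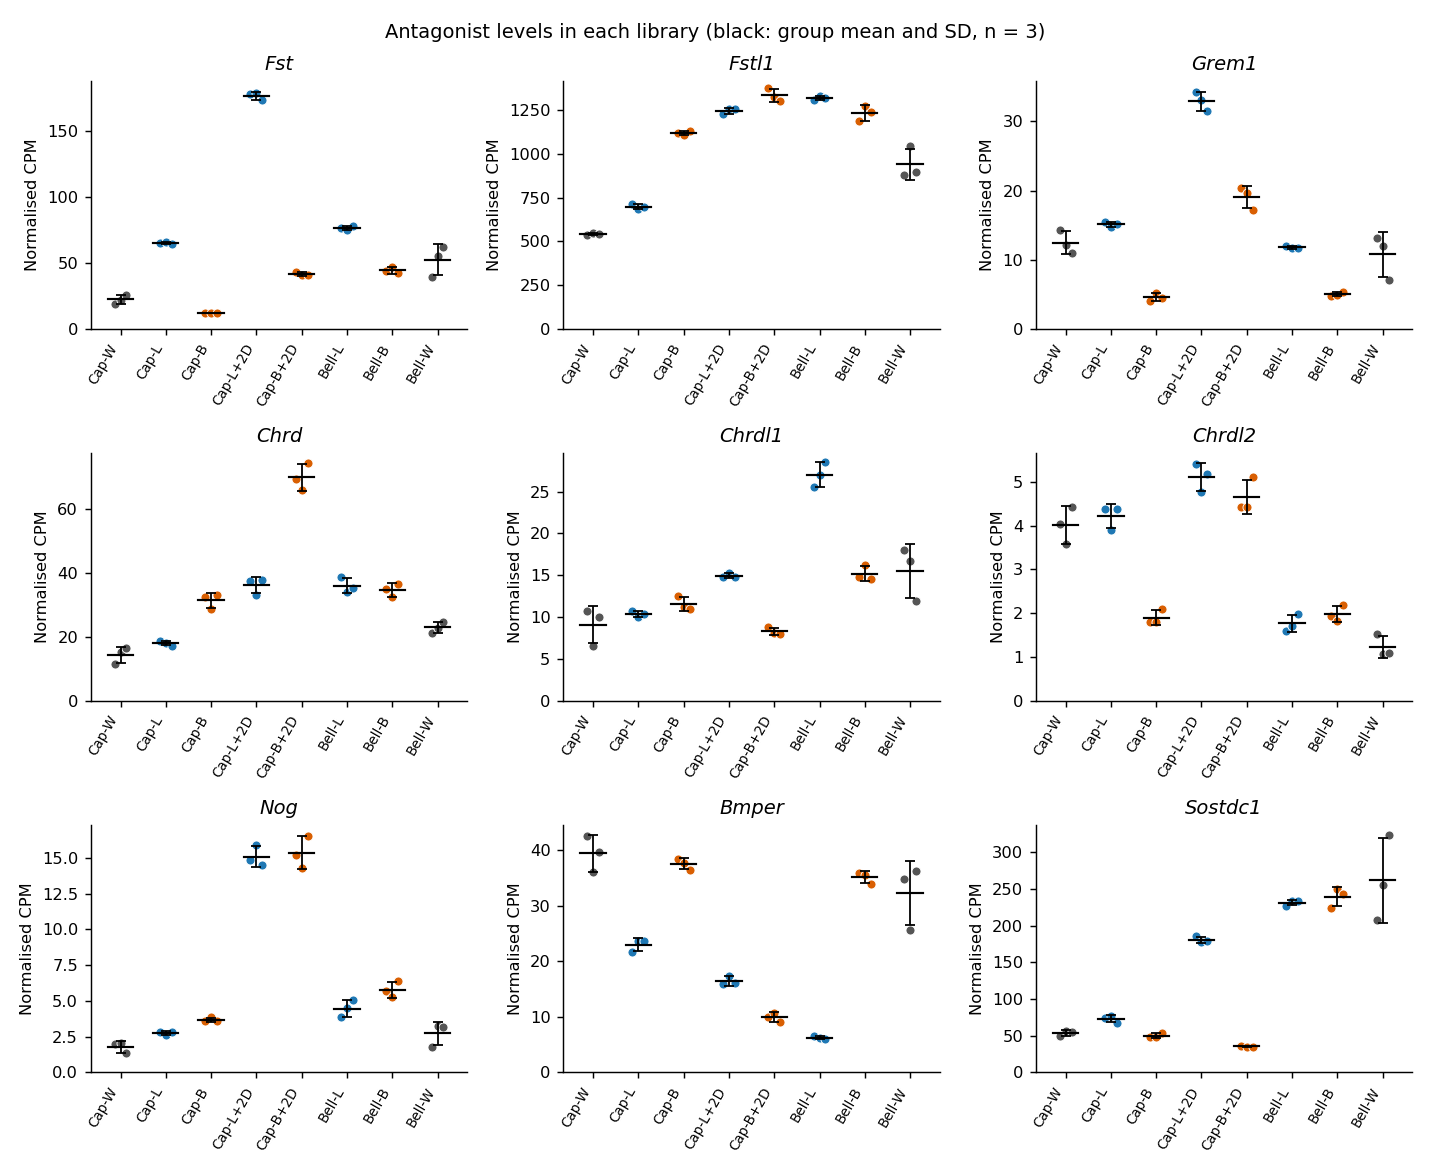
Normalised CPM of each of the 9 genes in all 24 libraries, on linear axes that start at 0; grey, blue and orange points are libraries of the undivided, lingual and buccal mesenchyme, and black lines are group means with the SD of 3 libraries. Fst and Grem1 peak in Cap-L+2D, Chrd in Cap-B+2D and Nog in both cultured groups, whereas Sostdc1 is lowest in Cap-B+2D and Bmper in Bell-L.

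**Figure D3:**
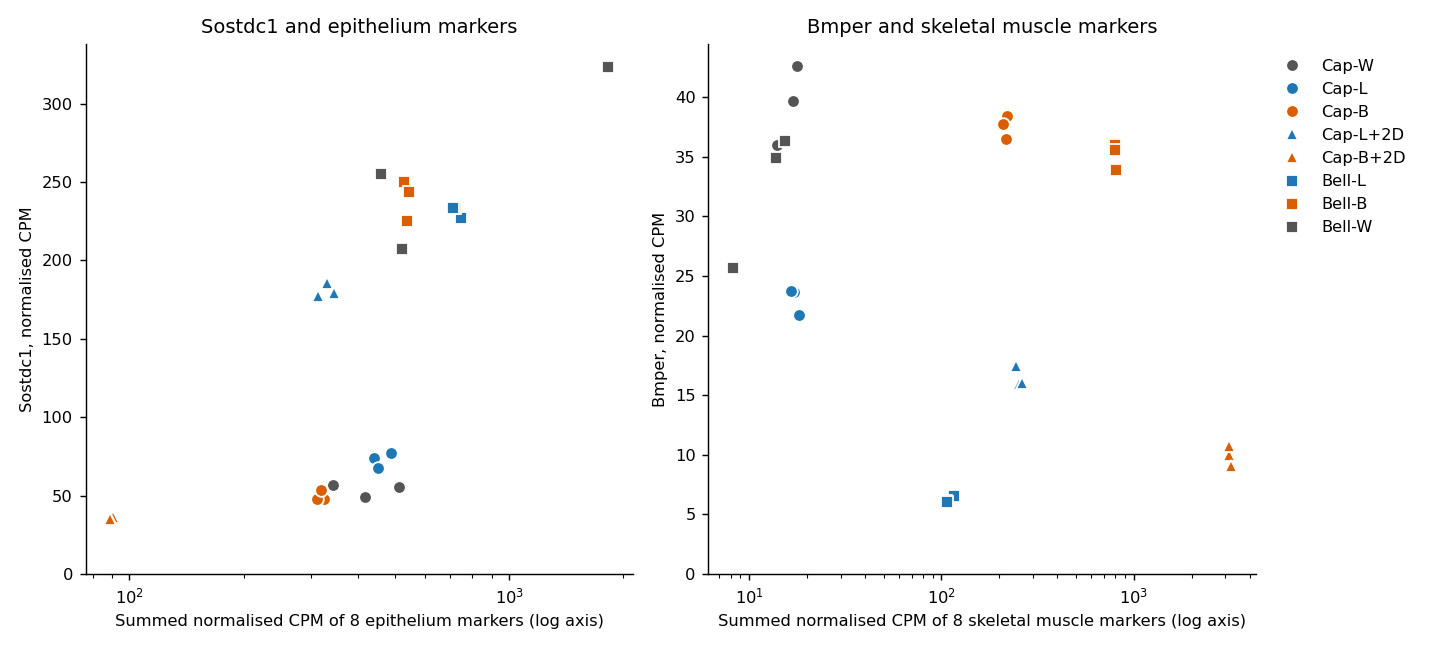
Left, Sostdc1 against the summed level of 8 epithelium markers, and right, Bmper against the summed level of 8 skeletal muscle markers, each in normalised CPM with a log x axis and 1 point per library. Cap-B+2D sits apart on both x axes, at the low end for epithelium (89.1 to 90.8 CPM) and at the high end for muscle (3126 to 3207 CPM).

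The lingual and buccal parts were compared to describe the asymmetry of the mesenchyme. A gene was called when edgeR's quasi-likelihood test gave an adjusted p under 0.05 with an absolute log2 fold change over 0.5. At the cap stage 7 of the 9 genes were called, against 17.5% of all 20653 genes tested. Chrd, Bmper and Fstl1, 3 genes against 10.4% of all genes in that direction, were higher in the buccal part, and Fst, Grem1, Chrdl2 and Sostdc1, 4 genes against 7.10%, in the lingual part. The libraries of the 2 sides did not overlap for any of the 9 genes, nor for 52.2% of all genes. The median log2 fold change of the 9 was 0.18, against -0.01 over all genes tested. At the bell stage 4 were called, against 12.9% of 21181 genes, with 1 (Bmper) higher in the buccal part, against 6.00%, and 3 (Fst, Grem1 and Chrdl1) in the lingual part, against 6.88%. The sides did not overlap for 6 genes, against 45.5% of all genes. After culture 6 were called, against 25.1% of 21195 genes, with 1 (Chrd) higher in the buccal part and 5 (Fst, Sostdc1, Chrdl1, Grem1 and Bmper) in the lingual part, against 12.5% in each direction. The cultured sides did not overlap for 7 genes, against 58.8%. Fst and Grem1 were the only members called in the same direction in all 3 settings.

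**Figure D4:**
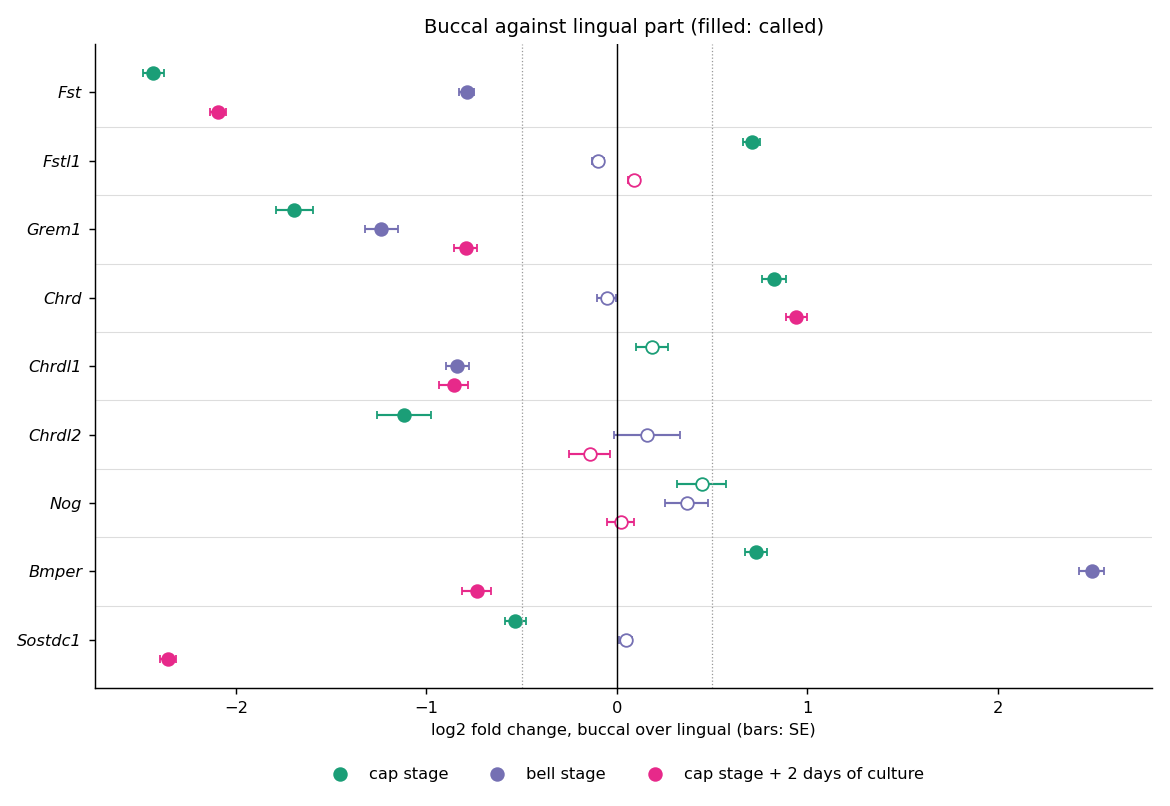
Log2 fold changes, buccal over lingual, of the 9 genes at the cap stage, at the bell stage and after 2 days of culture; bars are standard errors, filled points were called and dotted lines mark the limit of 0.5. Fst and Grem1 lie left of 0 in all 3 settings, and Bmper goes from 2.49 at the bell stage to -0.74 after culture.

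Whether the side difference itself changed was tested with interaction terms, which share the libraries of the fresh cap stage parts. The difference between the bell and cap stages had an adjusted p under 0.05 for 8 of the 9 genes, against 32.5% of 21931 genes, Nog being the exception with -0.08 (SE 0.17, adjusted p = 0.758). In 5 genes the value was positive, against 14.5% of all genes, and in 3 negative, against 18.0%. The buccal over lingual log2 fold change was higher at the bell stage by 1.76 for Bmper (SE 0.088), by 1.64 for Fst (SE 0.072) and by 1.27 for Chrdl2 (SE 0.22), and lower for Chrdl1 (-1.03, SE 0.10), Chrd (-0.89, SE 0.086) and Fstl1 (-0.81, SE 0.054). The lingual excess of Fst was thus smaller at the bell stage, and the buccal excess of Bmper larger. For Grem1 the value was 0.45 (SE 0.13, adjusted p = 7.25e-03), and with all 24 libraries in 1 fit it was 0.48 and no longer past the threshold (adjusted p = 0.212). The difference between cultured and fresh parts had an adjusted p under 0.05 for 8 genes as well, against 35.5% of 22098 genes, Chrd being the exception with 0.11 (SE 0.088, adjusted p = 0.346). Here 3 were positive, against 16.0% of all genes, and 5 negative, against 19.5%. It was -1.83 for Sostdc1 (SE 0.071), -1.47 for Bmper (SE 0.095) and -1.05 for Chrdl1 (SE 0.11), and 0.97 for Chrdl2 (SE 0.18) and 0.90 for Grem1 (SE 0.12). For Nog it was -0.43 (SE 0.15, adjusted p = 0.0215), which was not called without Cap-L replicate 2 (adjusted p = 0.0559) or Cap-B replicate 2 (adjusted p = 0.0687), nor with library totals (adjusted p = 0.0570), DESeq2 (adjusted p = 0.0660) or all 24 libraries (adjusted p = 0.270). For Fst it was 0.34 (SE 0.069, adjusted p = 2.60e-04), and 0.37 and not called with all 24 libraries (adjusted p = 0.102).

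From the cap to the bell stage, 5 of the 9 genes were called in the undivided mesenchyme, against 14.5% of 20940 genes. Of these, 4 rose (Sostdc1, Fst, Fstl1 and Chrd), against 10.3% of all genes, and 1, Chrdl2, fell (log2 fold change -1.71, SE 0.28), against 4.21%. The stages did not overlap for 6 genes, against 36.3%. In the lingual part 7 were called, against 20.0% of 21425 genes, with 5 (Sostdc1, Chrdl1, Chrd, Fstl1 and Nog) higher at the bell stage, against 14.2%, and 2 (Bmper and Chrdl2) lower, against 5.78%. None of the 9 overlapped between the stages there, nor did 56.1% of all genes. In the buccal part 3 were called, against 18.7% of 21992 genes, and these were Sostdc1, Fst and Nog, all higher, a direction in which 12.0% of all genes were called, with 6.73% in the other. Here 6 genes did not overlap, against 55.2%. Sostdc1 was the one gene called in all 3. The call of Chrd in the undivided mesenchyme (log2 fold change 0.67, SE 0.16, adjusted p = 0.0268) was lost when any of 4 libraries, Cap-W replicate 2 or any 1 of the Bell-W libraries, was left out, with adjusted p between 0.0541 and 0.0917. Chrdl1 there had a log2 fold change of 0.77 (SE 0.25, adjusted p = 0.0783), and 0.94 (adjusted p = 0.0453), called, without Bell-W replicate 3. For 4 of the 9 genes at each stage the undivided mean lay between those of the parts, for 4 it lay below both, and for 1, Bmper at the cap stage and Sostdc1 at the bell stage, above both. Marker sums of the undivided libraries also lay outside those of the parts. Skeletal muscle markers summed to between 8.26 and 15.4 CPM in Bell-W, against 106 to 116 CPM in Bell-L and 802 to 812 CPM in Bell-B. Endothelium markers summed to between 188 and 196 CPM in Cap-W, against 450 to 464 CPM in Cap-L and 401 to 418 CPM in Cap-B. The part of preparation in these positions was not tested.

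The cap stage parts were cultured for 2 days, about the time that separates the stages. Cultured and fresh parts thus differ in age, in setting and in time spent without the other part. These cannot be told apart in the culture comparisons. In the lingual part 7 genes were called, against 35.4% of 21425 genes, all of them higher after culture (19.6% of all genes, with 15.9% lower). These were Nog, Fst, Sostdc1, Grem1, Chrd, Fstl1 and Chrdl1. The median log2 fold change of the 9 genes was 1.00, against -0.03 over all genes tested. In the buccal part 8 were called, against 34.5% of 21992 genes, with 5 (Nog, Grem1, Fst, Chrdl2 and Chrd) higher, against 17.9%, and 3 (Bmper, Sostdc1 and Chrdl1) lower, against 16.6%. None of the 9 genes overlapped between fresh and cultured libraries on either side, against 66.9% of all genes for the lingual and 68.6% for the buccal part. Nog, Fst, Grem1 and Chrd were called as higher on both sides. With 1 library left out at a time, from 6 to 8 genes were called in the lingual part and 7 or 8 in the buccal part. In the lingual part, Bmper was just under the limit (log2 fold change -0.49, SE 0.066, adjusted p = 3.73e-07; -0.54, -0.54 and -0.50, and called, without Cap-L replicate 1, Cap-L+2D replicate 2 or Bell-L replicate 1), and Chrdl2 had a log2 fold change of 0.27 (SE 0.11, adjusted p = 0.0354).

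Markers of other cell types moved with culture as well. All members of each list had counts in every group, but the muscle marker Myf5 had at most 3 counts in every library of Cap-W and Cap-L. The 5 bone markers summed to between 971 and 982 CPM in Cap-L and between 2314 and 2338 CPM in Cap-L+2D, against 444 to 462 CPM in Cap-B and 571 to 583 CPM in Cap-B+2D. In the lingual part 3 of them rose, Ibsp, Spp1 and Alpl, with Ibsp going from a mean of 120 to 1191 CPM, while Runx2 fell from 445 to 294 CPM and Sp7 was at 142 and 117 CPM and not called. In the buccal part 3 of the 5 were called higher and 2 lower. Of all genes, 19.6% were called higher and 15.9% lower in the lingual comparison, and 17.9% and 16.6% in the buccal one. The 5 macrophage markers went from between 52.3 and 56.5 CPM to between 210 and 223 CPM in the lingual part and from between 52.1 and 58.9 CPM to between 141 and 151 CPM in the buccal part. The 4 erythroid markers, at between 1386 and 1748 CPM in the fresh cap stage parts, were between 17.4 and 20.4 CPM in the cultured parts. Endothelium markers, 6 in number, were between 164 and 168 CPM in Cap-B+2D, against 401 to 418 CPM in Cap-B. Their part in the changes of the antagonists was not tested.

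Against the bell stage parts of the same side, 6 genes were called in the cultured lingual part, against 31.2% of 21425 genes, 5 of them higher (14.4% of all genes) and 1 lower (16.8%). In the cultured buccal part 7 were called, against 31.8% of 21992 genes, 4 of them higher (15.5%) and 3 lower (16.3%). On each side 8 of the 9 genes did not overlap, against 67.2% and 66.6% of all genes. Grem1, Nog and Chrdl2 were higher and Chrdl1 lower than at the bell stage on both sides. Bmper was higher than at the bell stage in the lingual part and lower in the buccal part. These comparisons, the stage comparisons and the culture comparisons of a side share libraries and 1 fit of 9 libraries, so their values are set side by side and no overlap between them was tested.

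**Figure D5:**
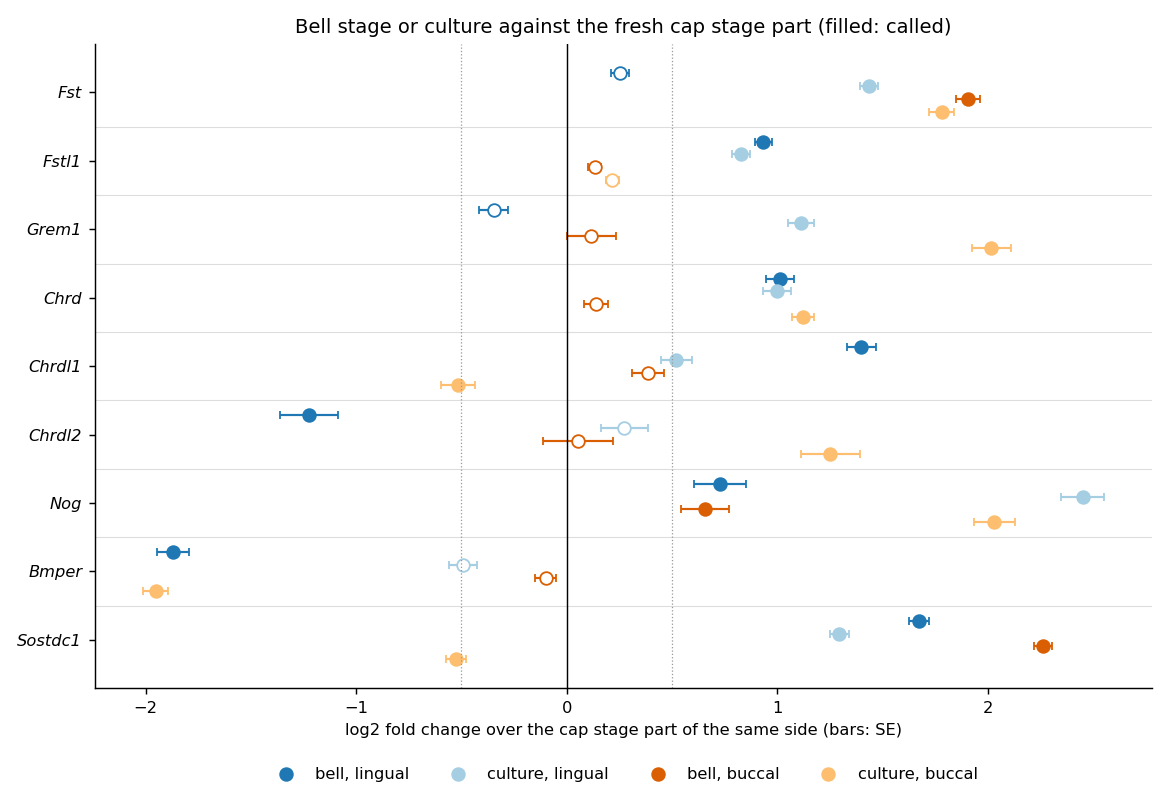
Log2 fold changes of the 9 genes from the fresh cap stage part to the bell stage part or to the cultured part of the same side; bars are standard errors, filled points were called and dotted lines mark the limit of 0.5. Nog and Grem1 lie further right in culture than at the bell stage on both sides, and Sostdc1 in the buccal part lies at 2.26 for the bell stage and -0.53 for culture.

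The other genes of the pathway were counted from lists. Of 12 ligand genes, 11 were tested at the cap stage, where 1 was higher in the buccal part (Gdf6, log2 fold change 0.66, SE 0.092; 10.4% of all genes) and 3 in the lingual part (7.10% of all genes), the largest fold changes being those of Gdf5 (-2.14, SE 0.25) and Inhba (-0.99, SE 0.056). Gdf5 had few counts, with means of 1.77 CPM in Cap-L and 0.388 CPM in Cap-B, against 194 and 95.9 CPM for Inhba. At the bell stage 1 of 11 was higher in the buccal part, Mstn, which encodes the muscle growth inhibitor myostatin, and 2 in the lingual part, Bmp2 (-1.43, SE 0.070) and Inhba (-0.56, SE 0.033), while 6.00% and 6.88% of all genes were called in these directions. Mstn was also low, with means of 0.388 CPM in Bell-L and 1.08 CPM in Bell-B. After culture 9 of 12 were higher in the lingual part, with Bmp2 (-2.22, SE 0.047) and Inhba (-1.71, SE 0.045) in front, and 1 in the buccal part, Mstn again (3.35, SE 0.15), against 12.5% of all genes in each direction. The median of the ligands after culture was -1.12, against 0.00 over all genes tested. Bmp4 had means of 73.9 CPM in Cap-L and 89.2 CPM in Cap-B and rose in culture on both sides, with log2 fold changes of 0.62 (SE 0.043) in the lingual part and 0.60 (SE 0.035) in the buccal part. Between the sides its log2 fold changes were 0.30 (SE 0.044) at the cap stage, 0.49 (SE 0.033) at the bell stage and 0.27 (SE 0.038) after culture, each under the limit for a call.

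Among the 8 receptor genes, Bmpr1b, a type I BMP receptor, was higher in the buccal part in all 3 settings, with log2 fold changes of 1.51 (SE 0.13) at the cap stage, 3.00 (SE 0.13) at the bell stage and 3.24 (SE 0.10) after culture. At the cap stage 2 of the 7 receptors tested were called, both higher in the buccal part. Of 8 tested at the bell stage, 1 was higher and 1 lower, and after culture 3 of 8 were higher and 1 was lower. The shares of all genes called higher were 10.4%, 6.00% and 12.5%, and those called lower 7.10%, 6.88% and 12.5%. Of the 8 response genes, 3 were lower in the buccal part at the cap stage, 1 at the bell stage and 3 after culture. In culture 6 response genes rose and 1 fell in the lingual part, and 4 rose and 1 fell in the buccal part, against 19.6% and 15.9% of all genes in the lingual and 17.9% and 16.6% in the buccal comparison. Id1, a direct target of BMP signalling, rose by 1.87 (SE 0.070) and 1.63 (SE 0.051) on the log2 scale in the lingual and buccal parts, from means of 29.1 and 20.7 CPM to 108 and 65.8 CPM. Msx1 fell by 0.77 (SE 0.053) and 1.23 (SE 0.035) on the log2 scale, from 461 and 485 CPM to 272 and 212 CPM. Msx2 rose by 2.10 (SE 0.11) in the cultured lingual part, while its means were 1.68 CPM in Cap-B and 1.47 CPM in Cap-B+2D. Against the bell stage part it was lower after culture on both sides, by log2 fold changes of -0.54 (SE 0.079) in the lingual and -3.31 (SE 0.11) in the buccal part. From Cap-B to Bell-B Msx2 had risen by 3.10 (SE 0.11).

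Of 13 further extracellular or membrane antagonists, 11 were tested. Smoc1, a matrix protein that holds BMP signalling back, rose in culture by 1.54 (SE 0.070) and 2.64 (SE 0.059) on the log2 scale in the lingual and buccal parts, and Nbl1, another DAN family gene, by 1.94 (SE 0.058) and 1.61 (SE 0.042). In all, 7 rose and 1 fell in the lingual part, and 3 rose and 2 fell in the buccal part, with a median log2 fold change of 0.63 and -0.06 over the 11. Over all genes tested, the same shares were 19.6% and 15.9% for the lingual side and 17.9% and 16.6% for the buccal side, and the medians -0.03 and -0.02. Between the sides, 2 of the 11 were higher and 1 lower in the buccal part at the cap stage. The counts were 2 and 4 at the bell stage and 1 and 4 after culture. Of all genes, 10.4%, 6.00% and 12.5% were called higher and 7.10%, 6.88% and 12.5% lower. Bambi, a membrane pseudoreceptor, was lower in the buccal part in all 3 settings, with log2 fold changes of -1.42 (SE 0.062), -0.59 (SE 0.049) and -2.18 (SE 0.052). Smoc2 was higher there at the cap stage (1.73, SE 0.043) and the bell stage (0.67, SE 0.031). Smoc1 was higher there at the bell stage (0.66, SE 0.048) and after culture (1.59, SE 0.047). Of Twsg1, a partner of Chordin, and the proteases Bmp1, Tll1 and Tll2, which cut Chordin or are related to those that do, Twsg1 and Bmp1 rose in the cultured lingual part by 0.61 (SE 0.042) and 0.55 (SE 0.041), and Tll1 fell in the cultured buccal part (log2 fold change -0.65, SE 0.078).

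The genes with the most similar course over the 8 group means of log2 CPM, among 14031 genes, were Crispld2 for Fst (Pearson r 0.98), Mrgprf for Fstl1 (0.99), Ptpn2 for Grem1 (0.97), Tlr2 for Chrd (0.99), Pnp2 for Chrdl1 (0.97), Tln1 for Nog (0.99), Cntnap1 for Sostdc1 (0.98) and B630019K06Rik for Bmper (0.90). For Chrdl2 it was Gpcpd1 (0.97). Bmper had the least close neighbour of the 9. Between members, the highest values were 0.90 for Fstl1 and Chrd, 0.87 for Chrd and Nog, and 0.84 for Chrdl1 and Sostdc1, and the lowest was -0.61 for Chrd and Bmper. These values describe 8 points that share the same libraries and scaling.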

How the data were processed

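Bulk RNA-seq was performed on 24 libraries. The authors deposited counts of read pairs per gene, not normalized, made per the file headers with featureCounts 2.0.0 in paired mode over exons of Ensembl annotation 107 (GRCm39), ignoring strand; pairs mapping to several places or genes were left out. The paper names a stranded kit and the labels another kit, and the sources name different trimming and alignment tools. Symbols came from GENCODE M39, which named 56017 of 56748 genes. Libraries were grouped by their titles. Counts totalled 20581720 to 39266497 per library (median 27677164).

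Tests used edgeR 4.0.16 in R 4.3.3: TMM normalization, filterByExpr, quasi-likelihood tests and Benjamini-Hochberg adjustment over all genes tested, without a replicate block. A gene was called where the adjusted p was under 0.05 and the log2 fold change beyond 0.5 in size, for interactions by the p alone. Sides were fitted on 6 libraries, each side's stage and culture comparisons on 9 and interactions on 12. The members, gene lists, tests and motifs were chosen with earlier results of these data known. Named beyond the members were at most 2 genes per list and direction, Bmp4, Inhba, Msx1 and Id1, and the nearest genes by Pearson r over group means of log2 CPM. Markers in the text serve as context. The script was tested on simulated counts. The alternatives were RLE, library totals, DESeq2 1.42.0, 2 other count filters, all 24 libraries together, the block, other fold limits and each library left out.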

Additional observations from a re-analysis of the deposited data

Results flagged for a closer look

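Groups of 3 libraries are too small for a test of single outlying libraries, and none was run. The side difference (buccal over lingual, log2) changed between the cap and bell stages, by the interaction term at an adjusted p under 0.05, for 8 of the 9 genes: by 1.64 for Fst, -0.81 for Fstl1, 0.45 for Grem1, -0.89 for Chrd, -1.03 for Chrdl1, 1.27 for Chrdl2, 1.76 for Bmper and 0.58 for Sostdc1. Between fresh and cultured cap stage parts it changed for 8 genes: by 0.34 for Fst, -0.62 for Fstl1, 0.90 for Grem1, -1.05 for Chrdl1, 0.97 for Chrdl2, -0.43 for Nog, -1.47 for Bmper and -1.83 for Sostdc1. With all 24 libraries in 1 fit, the values of Grem1 between the stages and of Fst and Nog between fresh and cultured parts were no longer past the threshold. A negative value means that the buccal part lost ground to the lingual part.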

How the results depend on the processing

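Of 1674 recomputed log2 fold changes of the members, 1630 kept their direction and their side of the limits, 24 lost a call, 9 gained one and 11 changed sign, the last all in values that were not called. With a limit of 1 on the absolute log2 fold change, the calls between the sides fell from 7 to 3 at the cap stage, from 4 to 2 at the bell stage and from 6 to 2 after culture, those between the undivided stages from 5 to 3 and those of the cultured lingual part from 7 to 4, which a stricter limit does by construction. With no limit, the buccal stage comparison went from 3 calls to 6. The other alternatives kept each count within 1.5 times. The cultured buccal part had 7 calls under RLE, DESeq2 or all 24 libraries and 6 without the count filter. The undivided stages had 4 with library totals, 6 with DESeq2 or no filter and 7 with all 24 libraries. The side by culture interaction had 7 with DESeq2 or library totals and 6 with all 24 libraries, and the side by stage interaction 7 with all 24; the cause was not tested.

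Signs changed for Chrd in cultured against bell stage lingual parts (0.00077 with RLE or DESeq2, 0.0097 without the filter, and from -0.051 to 0.044 leaving out 1 library), for Fstl1 on the buccal side of that comparison (-0.00080 with library totals), and, leaving out 1 library, for Nog between the cultured sides (-0.036 to 0.065), Grem1 between the undivided stages (-0.38 to 0.011), Chrdl2 between the buccal stages (-0.024 to 0.13) and Nog in the side by stage interaction (-0.18 to 0.018). Library totals in place of TMM moved the median of all genes by -0.15 in the lingual culture comparison and by -0.11 for cultured against bell stage lingual parts. Bmper in the cultured lingual part was then called (-0.64) and Chrdl1 was not (0.37).

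With a replicate block in the fit, the counts of members called were as without it in all 12 comparisons (7, 4 and 6 between the sides; 5, 7 and 3 between the stages; 7 and 8 for culture; 6 and 7 for culture against bell; 8 and 8 for the interactions). In none of the 10 pairs of groups compared did every same-numbered pair of libraries correlate over 0.1 (range -0.46 to 0.50). Counting also the pairs of groups that meet in the interaction fits alone, 1 of 14 did, Cap-B with Cap-L+2D (0.13, 0.39 and 0.22), and the range was -0.46 to 0.54. The numbers were not taken to pair the libraries. Chrdl2 and Nog in the fresh groups rest on 26 to 193 counts per library, which limits their precision.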
